A study of Mus musculus with 6 samples.

Results

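The AKT, mTORC1 and translation initiation genes described here are Igf1, Akt1, Akt2, Mtor, Rptor, Deptor, Rps6kb1, Eif4ebp1, Eif4e and Eif4g1. They were chosen by name as the route from a growth factor to cap-dependent translation, and all 10 were found by Ensembl identifier among the 55416 genes of the count table. RNA sequencing was performed on tibialis anterior (TA) muscle, a fast muscle of the lower leg, from aged mice. There were 3 WT mice and 3 SELENOW KO mice, all at 24 months of natural aging and on a C57BL/6N background, and the KO line carries a deletion of an exon of Selenow made with a pair of guide RNAs. SELENOW is a small selenocysteine-containing protein that is abundant in skeletal muscle, and the study asked what its loss does to protein turnover in old muscle.

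IGF1 binds its receptor on the muscle fiber and, through PI3 kinase, activates the AKT kinases, which relieve the inhibition of mTORC1. mTORC1 then phosphorylates S6 kinase and the 4E-BP proteins, so that eIF4E is released to join eIF4G and eIF4A on the mRNA cap. This route is a main control of protein synthesis and fiber size in skeletal muscle, and most of its regulation is by phosphorylation, which RNA counts do not measure.

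Library depth ranged from 25351976 to 29111213 counts among the WT and from 27345022 to 27815342 among the KO samples. Values listed in a row for a genotype are those of its replicates 1, 2 and 3. Values below are CPM, the counts of a gene brought to a common library size with TMM factors. Levels of different genes are compared only as CPM per kilobase of the counted gene length. That length takes in all counted exons of a gene and need not match the transcripts present. Ratios between genes depend on it, and where a ratio lies near 1 so does the order of the genes. Mitochondrially encoded genes took 37.3%, 29.1% and 29.8% of the counts in the WT libraries and 40.3%, 38.2% and 35.4% in the KO libraries. The labelled tissue was checked against its markers: the 7 myofiber genes, Acta1 and Ckm among them, together had a CPM of 77141 to 100384 in WT and 85597 to 98665 in KO. Of these Tnnt3 was the most abundant per kilobase. The 6 genes of slow myofibers summed to 43.5, 16.8 and 54.6 in WT and 27.4, 17.2 and 17.8 in KO.

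Selenow, the targeted gene, had a CPM of 268, 245 and 219 in WT and 193, 212 and 210 in KO. The genotypes did not overlap, KO being the lower, and the log2 fold change in edgeR was -0.25 (standard error, SE, 0.14, adjusted p = 0.604). The count covers the whole gene and not only the deleted exon, so it does not check the labels.

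None of the 10 genes differed between KO and WT muscle by the study's thresholds, an unadjusted p under 0.05 with a fold change over 1.5 or under 0.7. By these thresholds 836 of the 15623 tested genes were called in edgeR, or 5.35%, and a count of 0 among 10 genes is close to that background. All 10 genes were tested, 5 had a log2 fold change below 0 and 5 above 0, and their median was -0.03 as compared with -0.0042 over all tested genes. The median size of the change, without its sign, was 0.13 for the 10 genes and 0.19 for all tested genes. None of the 10 genes had an unadjusted p under 0.05, which was given by 9.89% of all tested genes, and in none were the libraries of the genotypes apart, as they were in 15.4% of all tested genes. With edgeR the adjusted p-values of the 10 genes ran from 0.599 to 0.979, and 0% of all tested genes had an adjusted p under 0.05. DESeq2 gave such an adjusted p to 45 of the same 15623 genes and to 0 of the 10.

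**Figure D1:**
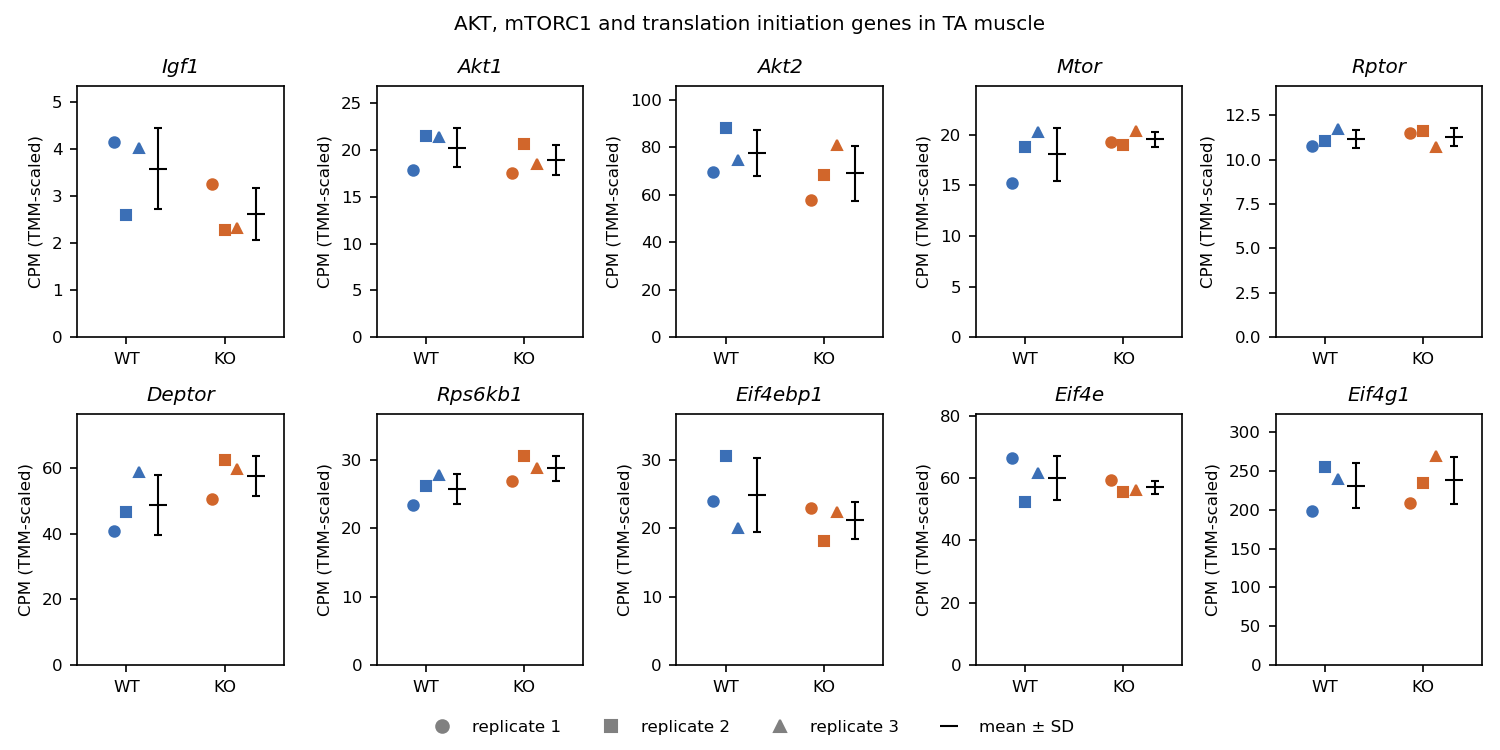
TMM-scaled CPM of each of the 10 genes in the 3 WT (blue) and 3 KO (orange) libraries, with the marker shape giving the replicate number and the black bar the mean and SD of the genotype. Every axis starts at 0, and for each gene the WT and KO libraries overlap.

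The ligand came first in the size of its difference. Igf1 (ENSMUSG00000020053.19), the growth factor made by muscle fibers and by interstitial cells of muscle, had a CPM of 4.14, 2.58 and 4.02 in WT and of 3.26, 2.28 and 2.32 in KO. WT replicate 2 lay among the KO libraries and KO replicate 1 above it, so the genotypes overlapped. Igf1 averaged 3.58 in WT (SD 0.865) and 2.62 in KO (SD 0.555), with n = 3 mice a genotype. In edgeR's quasi-likelihood fit it had a log2 fold change of -0.45 (SE 0.25, 95% interval -0.98 to 0.09, adjusted p = 0.599), and the exact permutation test, two-sided, gave p = 0.2, where 3 against 3 cannot go below 0.1. These values rest on 56 to 122 counts a library. The call depended on single libraries: Igf1 passed the thresholds without WT replicate 2, with a log2 fold change of -0.63, and without KO replicate 1, with -0.63, and its adjusted p in edgeR was then 0.448 and 0.445, within a range of 0.445 to 0.956 over 13 refits. Without WT replicate 1 the log2 fold change was -0.33, the smallest of the refits.

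Igf1 was set beside markers of the interstitial cells that also make it and of slow fibers. The 7 markers of fibro-adipogenic progenitors, the connective tissue cells of muscle, summed to a CPM of 170, 106 and 316 in WT and 192, 92.1 and 157 in KO. Their most abundant gene per kilobase was Gsn, 6 of the 7 had a log2 fold change below 0, none was called, and none was at 0 in all libraries. The 8 macrophage markers summed to 18.0, 15.3 and 40.3 in WT and 22.4, 14.7 and 13.0 in KO. Their most abundant gene per kilobase was Cd68, none was at 0 in all libraries, 6 had a log2 fold change below 0, and Csf1r alone was called, with -0.69 (adjusted p = 0.470 in edgeR). WT replicate 2 and KO replicate 2 were low in Igf1 and in both sums, whereas WT replicate 3, far the highest in both sums, had no more Igf1 than WT replicate 1. The sum of the slow myofiber genes, given above, was likewise highest in WT replicates 1 and 3 and KO replicate 1, the 3 libraries highest in Igf1. Of its 6 genes 5 had a log2 fold change below 0, with a median of -0.92 and the lowest value for Tnni1, a slow troponin, at -2.49 (SE 1.17, adjusted p = 0.593 in edgeR), and none was called. The part of these cells and fibers in the Igf1 values was not tested, and in bulk muscle fewer cells of a type and less RNA per cell cannot be told apart.

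**Figure D2:**
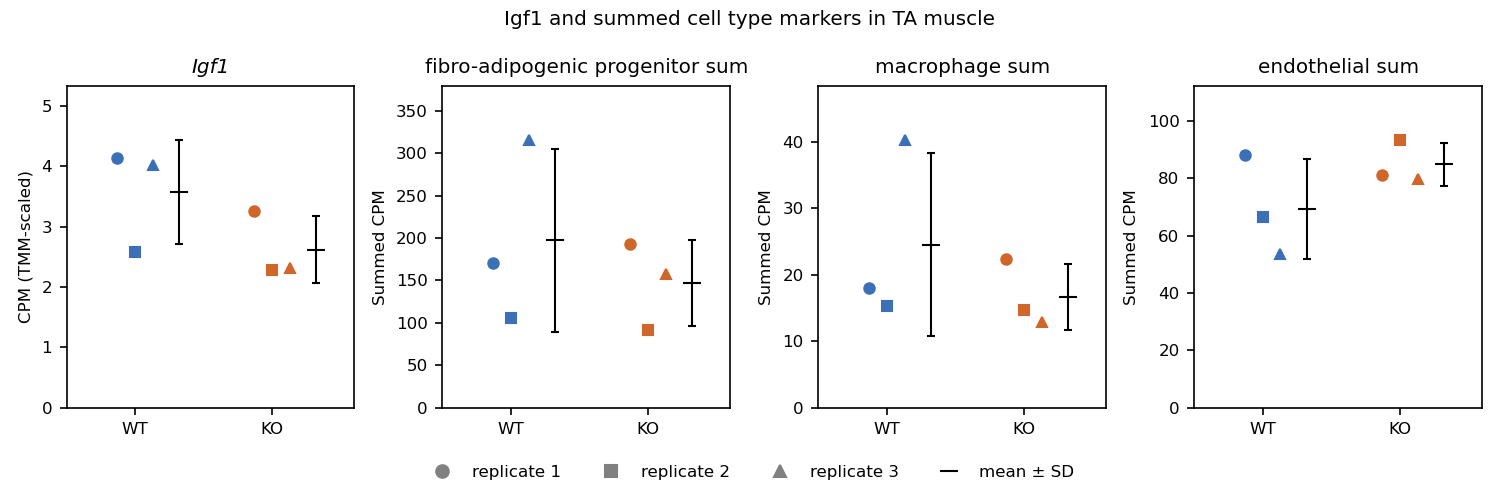
TMM-scaled CPM of Igf1 and the summed CPM of the fibro-adipogenic progenitor, macrophage and endothelial markers in the WT (blue) and KO (orange) libraries, with the mean and SD in black. WT replicate 3 is highest in the first 2 sums, at 316 and 40.3, and lowest in the endothelial sum, at 53.7.

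The other marker lists held few calls. All 5 endothelial markers had a log2 fold change above 0, with sums of 88.0, 66.6 and 53.7 in WT and 81.4, 93.5 and 79.7 in KO, and none was called. Cdh5, the endothelial cadherin and the most abundant of them per kilobase, missed the call on its fold change alone. Its CPM was 23.5, 20.0 and 15.2 in WT and 25.7, 30.7 and 26.8 in KO, without overlap, and its log2 fold change was 0.50 (SE 0.16, unadjusted p = 0.00835, adjusted p = 0.340 in edgeR). Among the lymphocyte markers only Cd3e, a subunit of the T cell receptor complex, had enough counts to be tested, and it was called higher in KO, with a CPM of 0.811, 1.34 and 1.15 in WT and 1.37, 2.94 and 3.14 in KO. Its log2 fold change was 1.16 (SE 0.34, adjusted p = 0.316 in edgeR). None of the 3 tested satellite cell markers and neither of the tested tenocyte markers Scx and Fmod was called. None of the 4 adipocyte markers had enough counts to be tested, and their summed CPM was 0.224 to 0.775.

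The genes whose values followed Igf1 most closely over the 6 libraries were Pdcd6 (Pearson r = 0.993), Bace1 (r = 0.989) and Gm17122 (r = 0.988), out of 15622 other tested genes. Pdcd6 encodes a calcium-binding protein and Bace1 a membrane protease. All 3 shared the pattern of WT replicates 1 and 3 above KO replicate 1 and the other libraries below, and none was called between the genotypes. These r values describe 6 libraries and were the highest of many.

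The AKT kinases are the next step, with AKT2 the form most tied to insulin-stimulated glucose uptake and AKT1 to growth. Akt1 (ENSMUSG00000001729.15) had a CPM of 17.8, 21.5 and 21.4 in WT and 17.6, 20.7 and 18.5 in KO. Akt2 (ENSMUSG00000004056.16) had a CPM of 69.6, 88.1 and 74.5 in WT and 57.6, 68.4 and 80.8 in KO. Both genes had overlapping genotypes, and for both KO replicate 1 was the lowest of the 6 libraries. In edgeR the log2 fold change was -0.10 (SE 0.13, adjusted p = 0.825) for Akt1 and -0.17 (SE 0.16, adjusted p = 0.754) for Akt2. That of Akt1 was -0.18 without WT replicate 1 and -0.05 without KO replicate 1.

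The balance of Akt2 and Akt1 was read within each library. Per kilobase, Akt2 exceeded Akt1 in every library, by a ratio of 2.24, 2.35 and 2.00 in WT and 1.89, 1.90 and 2.51 in KO. The genotypes overlapped in this ratio, with KO replicate 3 the highest library and KO replicate 1 the lowest.

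Of the mTORC1 subunits, Mtor (ENSMUSG00000028991.16) encodes the kinase and had a CPM of 15.2, 18.8 and 20.3 in WT and 19.3, 19.0 and 20.4 in KO. WT replicate 1 was low and the other 5 libraries lay close together. Mtor had a log2 fold change of 0.11 (SE 0.14, adjusted p = 0.815 in edgeR), which was 0.0019 without WT replicate 1. Rptor (ENSMUSG00000025583.16), whose product RAPTOR brings substrates to the kinase, was the steadiest of the 10 genes in WT, with a CPM of 10.7, 11.1 and 11.7 in WT and 11.5, 11.6 and 10.7 in KO. Its SD was 4.47% of the mean in WT and 4.48% in KO, where Eif4e at 3.48% and Mtor at 3.82% varied less, and counting error alone gives 5.72% at the mean count of Rptor. Rptor had a log2 fold change of 0.01 (SE 0.13, adjusted p = 0.979 in edgeR).

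Deptor (ENSMUSG00000022419.17), whose product binds mTOR and inhibits it, had the highest log2 fold change of the 10 genes. Its CPM was 40.9, 46.7 and 59.1 in WT and 50.7, 62.6 and 59.8 in KO. WT replicate 3 stood among the KO libraries and KO replicate 1 among the WT libraries. Deptor had a log2 fold change of 0.24 (SE 0.16, 95% interval -0.10 to 0.58, adjusted p = 0.653 in edgeR), and the exact permutation test, two-sided, gave p = 0.2. Per kilobase, Deptor exceeded Mtor 3.07-, 2.83- and 3.32-fold in the WT libraries and 2.99-, 3.76- and 3.34-fold in the KO libraries, so that the inhibitor was the more abundant transcript in all 6 libraries.

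Further subunits were examined beside them. Rictor, the subunit that defines mTORC2, had a log2 fold change of 0.22 (adjusted p = 0.637), Mlst8, shared by both complexes, of -0.04 (adjusted p = 0.958), and Akt1s1, which encodes the mTORC1 inhibitor PRAS40, of 0.11 (adjusted p = 0.831), all from edgeR. The ratio of Rptor to Rictor per kilobase was 0.970 to 1.38 in WT and 0.887 to 1.02 in KO, with WT replicate 3 the highest library. None of the 7 tested genes of mTOR complex subunits outside the 10 genes was called.

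The genes of the mTORC1 substrates had fold changes of opposite sign, each within the spread of the replicates. Rps6kb1 (ENSMUSG00000020516.16), which encodes the S6 kinase, had a CPM of 23.4, 26.2 and 27.7 in WT and 26.9, 30.6 and 28.8 in KO. KO replicate 1 lay below WT replicate 3, and otherwise the KO libraries were the higher ones. Its log2 fold change was 0.16 (SE 0.12, 95% interval -0.11 to 0.43, adjusted p = 0.705 in edgeR), which was 0.09 without WT replicate 1. The related Rps6kb2 had a log2 fold change of 0.12 (adjusted p = 0.823 in edgeR), and Rps6kb1 exceeded it per kilobase 1.30- to 1.71-fold in WT and 1.38- to 1.90-fold in KO.

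Eif4ebp1 (ENSMUSG00000031490.7), whose product 4E-BP1 holds eIF4E back until mTORC1 phosphorylates it, had a CPM of 24.0, 30.7 and 20.0 in WT and 23.0, 18.1 and 22.3 in KO. WT replicate 2 was the highest and WT replicate 3 below 2 of the KO libraries. Eif4ebp1 had a log2 fold change of -0.24 (SE 0.16, 95% interval -0.59 to 0.12, adjusted p = 0.671 in edgeR), which was -0.05 without WT replicate 2, and the exact permutation test, two-sided, gave p = 0.4. Eif4ebp2, its close relative, had a log2 fold change of -0.09 (adjusted p = 0.886 in edgeR) and was above Eif4ebp1 per kilobase in all 6 libraries, by a ratio of 1.03 to 1.53 in WT and 1.05 to 1.57 in KO. Eif4ebp3 had 0.13 (adjusted p = 0.902 in edgeR).

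The last step is the cap-binding complex eIF4F. Eif4e (ENSMUSG00000028156.13), encoding the cap-binding protein, had a CPM of 66.4, 52.4 and 61.6 in WT and 59.3, 55.5 and 56.3 in KO. All KO libraries lay inside the range of the WT libraries, and the log2 fold change was -0.08 (SE 0.13, adjusted p = 0.883 in edgeR). Eif4g1 (ENSMUSG00000045983.17), the scaffold that joins the cap to the ribosome, had a CPM of 199, 255 and 239 in WT and 209, 234 and 270 in KO. Here too the genotypes overlapped, with a log2 fold change of 0.04 (SE 0.16, adjusted p = 0.950 in edgeR).

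The balance of eIF4E with its partners was read per kilobase within each library. The sum of the 3 4E-BP transcripts exceeded Eif4e 2.46-, 4.14- and 2.67-fold in WT and 2.89-, 2.95- and 3.05-fold in KO. Eif4g1 exceeded Eif4e 2.46-, 4.002- and 3.19-fold in WT and 2.91-, 3.48- and 3.95-fold in KO. In both ratios the WT libraries spread around the KO libraries or overlapped them, with WT replicate 2 the highest and WT replicate 1 the lowest.

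The levels of the 10 genes spanned a wide range that was shared by both genotypes. Eif4g1 was the most abundant, at 31.6 ± 3.95 CPM per kilobase in WT and 32.6 ± 4.17 in KO (each with its SD over 3 mice), and Igf1 the least abundant, at 0.361 ± 0.0873 in WT and 0.265 ± 0.0561 in KO. Between them stood Eif4ebp1, Akt2 and Eif4e, with means over the 6 libraries of 10.5, 10.3 and 9.75, which overlapped and did not keep their order across libraries. Then followed Deptor at 6.005, Akt1 at 4.78, Rps6kb1 at 3.15, Mtor at 1.86 and Rptor at 0.833, and this order was kept in all 6 libraries. Of all tested genes, 95.4% were at or below the level of Eif4g1, 55.1% at or below that of Mtor and 15.3% at or below that of Igf1.

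**Figure D3:**
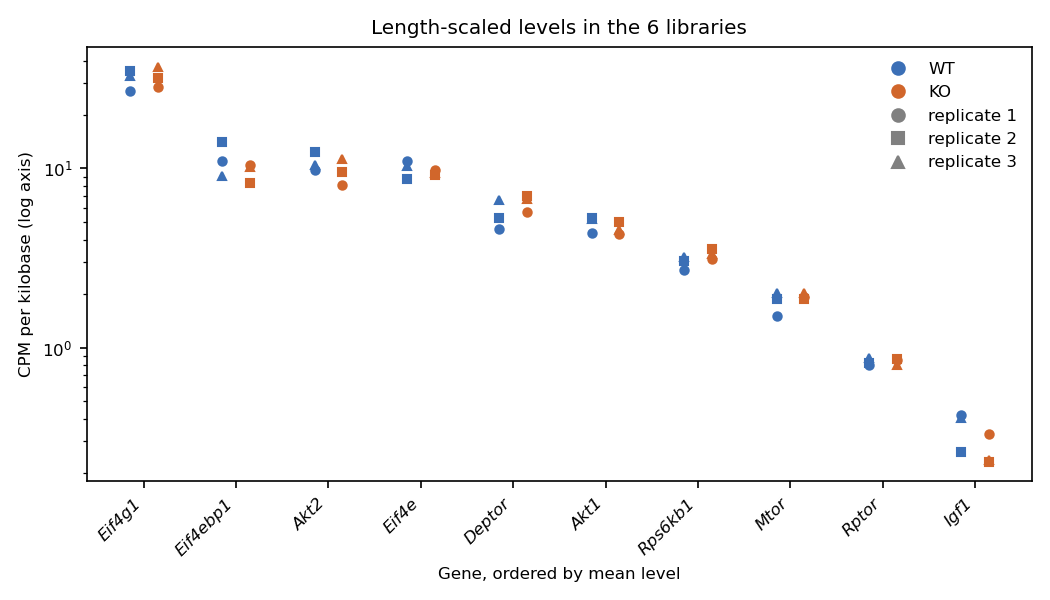
Level of each of the 10 genes as CPM per kilobase of counted length, on a log axis, in the WT (blue) and KO (orange) libraries, ordered by the mean. Eif4g1 is highest with a mean of 32.1 and Igf1 lowest with 0.313, and Eif4ebp1, Akt2 and Eif4e overlap.

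The spread of the replicates set how small a change could be seen. For all 10 genes the 95% interval of the log2 fold change included 0. For 8 of the 10 it lay wholly between the study's fold change thresholds, log2 -0.51 and 0.58, and for Igf1 and Eif4ebp1 it reached below the lower one. Among the 8, Akt2 with a lower bound of -0.511 against -0.515 and Deptor with an upper bound of 0.582 against 0.585 cleared the thresholds by little, and leaving out 1 library moved their log2 fold changes to between -0.30 and -0.05 for Akt2 and between 0.13 and 0.40 for Deptor. The narrowest intervals were those of Rps6kb1, from -0.11 to 0.43, and Rptor, from -0.26 to 0.29. Taking the median of the 10 genes in each library as a log2 difference from the WT mean, WT replicate 1 stood at -0.14, the other WT libraries at 0.05 and 0.08, and the KO libraries at -0.05, 0.03 and 0.0042.

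**Figure D4:**
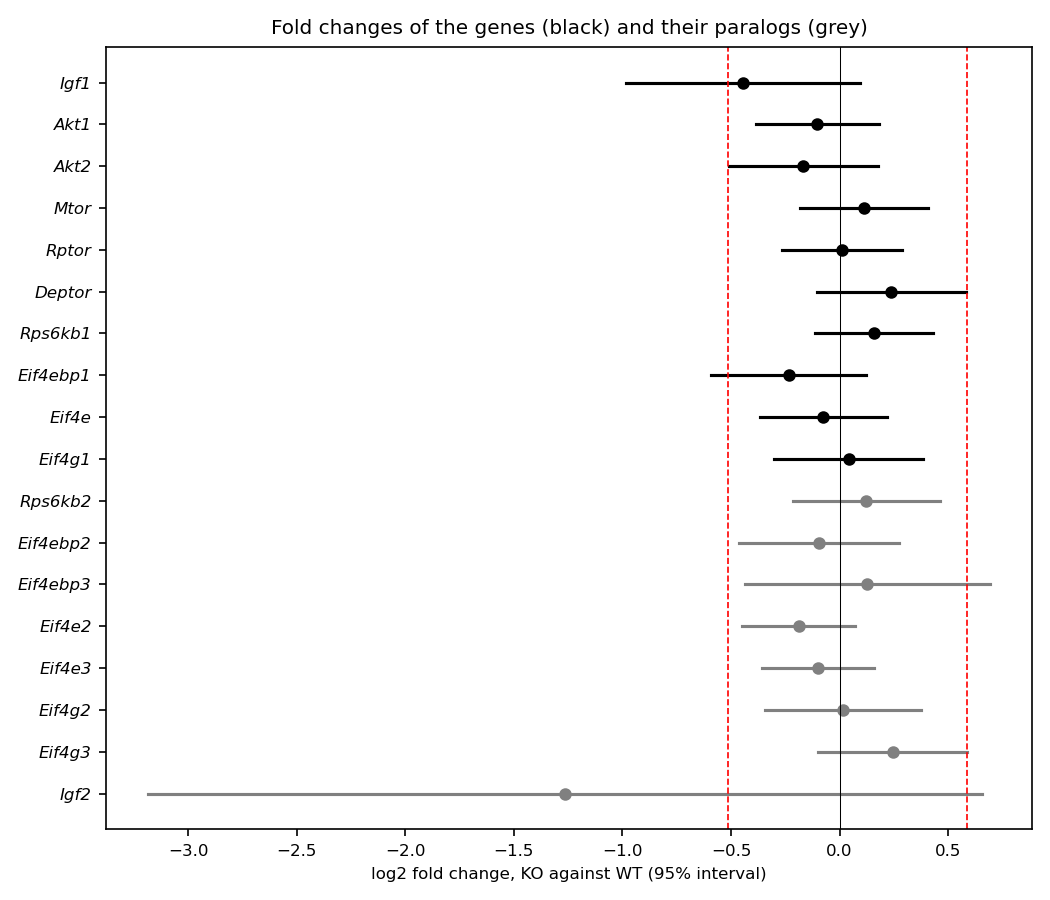
Log2 fold change of KO against WT with its 95% interval from edgeR for the 10 genes (black) and paralogs of them (grey), with the red dashed lines at the study's fold change thresholds. Every interval includes 0, and the widest is that of Igf2.

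Of the 9 paralogs none was called. Eif4e2, a cap-binding relative of eIF4E that does not bind eIF4G, was the 1 paralog whose libraries did not overlap, with a CPM of 27.5, 23.5 and 25.6 in WT and 22.8, 22.5 and 21.8 in KO. Its log2 fold change was -0.19 (SE 0.12, adjusted p = 0.639 in edgeR). Eif4e3 had a log2 fold change of -0.10 (adjusted p = 0.813), Eif4g2 of 0.01 (adjusted p = 0.982) and Eif4g3 of 0.25 (adjusted p = 0.642), all from edgeR.

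Igf2, the growth factor related to Igf1 and used in development and regeneration, had the widest spread. Its CPM was 12.7, 7.16 and 37.8 in WT and 9.67, 8.11 and 6.28 in KO. WT replicate 3, which was also the highest library for the fibro-adipogenic progenitor and macrophage sums, stood far above the others, and the part of those cells was not tested. The log2 fold change was -1.26 (SE 0.72, adjusted p = 0.642 in edgeR), and without WT replicate 3 it was -0.31 (adjusted p = 0.748). Without WT replicate 2, Igf2 passed the study's thresholds with -1.66 (adjusted p = 0.492), and over 13 refits its adjusted p ran from 0.445 to 0.963.

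The wider pathway was followed in the paralogs and 12 further lists, of which 149 of 153 genes were tested. In edgeR only Prkag2 was called, 0.671% as compared with 5.35% of all tested genes, and it was lower in KO, where 3.14% of all tested genes were called lower. DESeq2 called Grb10 in addition. An unadjusted p under 0.05 was given by 8 of the 149 genes, all lower in KO, or 5.37% as compared with 5.16% of all tested genes in that direction. The genotypes did not overlap in 16 of the 149 genes, or 10.7% as compared with 15.4% of all tested genes. Of these, 10 were lower in KO (Eif4e2, Grb2, Seh1l, Slc38a2, Eif4a1, Eif4h, Eif1a, Eif6, Eef1b2 and Eef1g) and 6 higher (Gsk3a, Rragc, Castor1, Pdcd4, Eif2ak3 and Eif2ak4), where 7.87% of all tested genes were lower and 7.53% higher without overlap. The 6 higher genes had log2 fold changes of 0.12 (Rragc) to 0.69 (Castor1), with Eif2ak3 at 0.54, and none had an unadjusted p under 0.05. The median log2 fold change was -0.07, with 88 genes below 0 and 61 above.

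Prkag2 encodes a regulatory subunit of AMPK, the energy sensor that restrains mTORC1. Its CPM was 16.6, 11.4 and 16.7 in WT and 11.7, 9.54 and 6.58 in KO. KO replicate 1 lay just above WT replicate 2, so the genotypes overlapped. The log2 fold change was -0.69 (SE 0.22, adjusted p = 0.364 in edgeR), and it no longer passed the thresholds without WT replicate 1, at -0.60 (adjusted p = 0.580), or without KO replicate 3, at -0.49 (adjusted p = 0.595). Its adjusted p ran from 0.00495 with no filter on low counts, a setting of edgeR in which 363 genes passed 0.05, to 0.595. Prkag3, the subunit typical of fast muscle, had a CPM of 34.2, 55.1 and 53.9 in WT and 46.0, 68.4 and 78.2 in KO, with a log2 fold change of 0.42 (adjusted p = 0.600 in edgeR). Prkab2, a scaffold subunit of AMPK, had the highest level per kilobase of the 15 tested genes of TSC, RHEB and energy or stress input, and 0.06 (adjusted p = 0.918 in edgeR).

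Upstream of AKT, none of the 20 tested genes of insulin and IGF receptor signalling was called in edgeR, and the most abundant per kilobase was Gsk3a, a kinase that AKT inhibits, with a log2 fold change of 0.16 (adjusted p = 0.702 in edgeR). Irs1, the docking protein between receptor and PI3 kinase, was the 1 gene of this list with an unadjusted p under 0.05. Its CPM was 47.2, 37.5 and 41.0 in WT and 31.1, 28.6 and 37.8 in KO, with a log2 fold change of -0.37 (adjusted p = 0.455 in edgeR). Grb10, an adaptor that restrains the insulin and IGF1 receptors, had a CPM of 11.2, 11.9 and 21.8 in WT and 10.3, 11.4 and 9.58 in KO, WT replicate 3 being far the highest. Its log2 fold change was -0.53 (SE 0.25, unadjusted p = 0.0626, adjusted p = 0.536 in edgeR). Grb10 passed the thresholds with DESeq2, at -0.53 (unadjusted p = 0.0324), and in 4 refits of edgeR, those with no filter, with robust estimation off and without WT replicate 1 or 2. Of the 7 tested IGF binding proteins and related genes none was called, and Igfbp5, which carries IGFs in the tissue, was the most abundant, with 0.18 (adjusted p = 0.876 in edgeR). Igfbp2, Pappa and Pappa2 had at most 13 counts in any library and were not tested.

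The amino acid branch, through which the RAG GTPases bring mTORC1 to the lysosome, had no called gene among 29. Slc38a2, an amino acid transporter, and Sec13, a subunit of the GATOR complex and of secretory vesicle coats, had an unadjusted p under 0.05. The CPM of Slc38a2 was 98.0, 115 and 107 in WT and 96.0, 60.9 and 81.2 in KO, without overlap, and its log2 fold change was -0.43 (adjusted p = 0.455 in edgeR). Rragd, which encodes a RAG GTPase, was the most abundant of the list per kilobase and had 0.09 (adjusted p = 0.897 in edgeR).

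Downstream of mTORC1, none of the 8 S6 kinase targets and related genes was called, and Eef2, the elongation factor, had the highest level, with a log2 fold change of 0.07 (adjusted p = 0.917 in edgeR). Among 11 cofactors of eIF4F and MNK kinases none was called, 8 had a log2 fold change below 0, and Eif4a2, a cap-complex helicase, was the most abundant, with -0.21 (adjusted p = 0.668 in edgeR). Its relative Eif4a1 had a CPM of 58.1, 55.9 and 55.2 in WT and 52.1, 36.2 and 38.9 in KO. The libraries of Eif4a1 did not overlap, and its log2 fold change was -0.41 (adjusted p = 0.416 in edgeR).

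The other initiation factors gave no call. Of the 14 genes of eIF2, eIF2B and the eIF2 kinases 8 had a log2 fold change below 0, of the 13 eIF3 subunits 10, and of the 8 genes of eIF1, eIF1A, eIF5, eIF5B and eIF6 7. The most abundant of each list were Eif2s2, with -0.02 (adjusted p = 0.965), Eif3h, with 0.08 (adjusted p = 0.873), and Eif1, with -0.14 (adjusted p = 0.795), all from edgeR. Eif3k was the 1 eIF3 subunit with an unadjusted p under 0.05, at -0.29 (adjusted p = 0.497 in edgeR).

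Eif6, which keeps the large ribosomal subunit from joining too early, missed a call on its fold change alone. Its CPM was 9.17, 11.1 and 9.55 in WT and 7.53, 6.24 and 7.11 in KO, without overlap. Its log2 fold change of -0.513 (SE 0.15, adjusted p = 0.306 in edgeR) was just short of the threshold of -0.515, and Eif6 was called in 6 of 13 refits and also with no fold change threshold. Of the 6 elongation factors none was called and 5 had a log2 fold change below 0. Of all 6, Eef1a2, the form of adult muscle, was the most abundant, with a log2 fold change of 0.14 (adjusted p = 0.784 in edgeR). Eef1b2, a subunit of its exchange factor, had the lowest p of the 6. The CPM of Eef1b2 was 60.6, 54.1 and 48.9 in WT and 38.0, 37.8 and 44.5 in KO. Its log2 fold change was -0.44 (adjusted p = 0.338 in edgeR). Irs1, Grb10, Sec13, Eif3k, Prkag3, Tnni1, Cdh5 and the genes listed for libraries without overlap, other than Eif4e2 and Gsk3a, are named here because of their values, outside the rule for named genes.

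**Figure D5:**
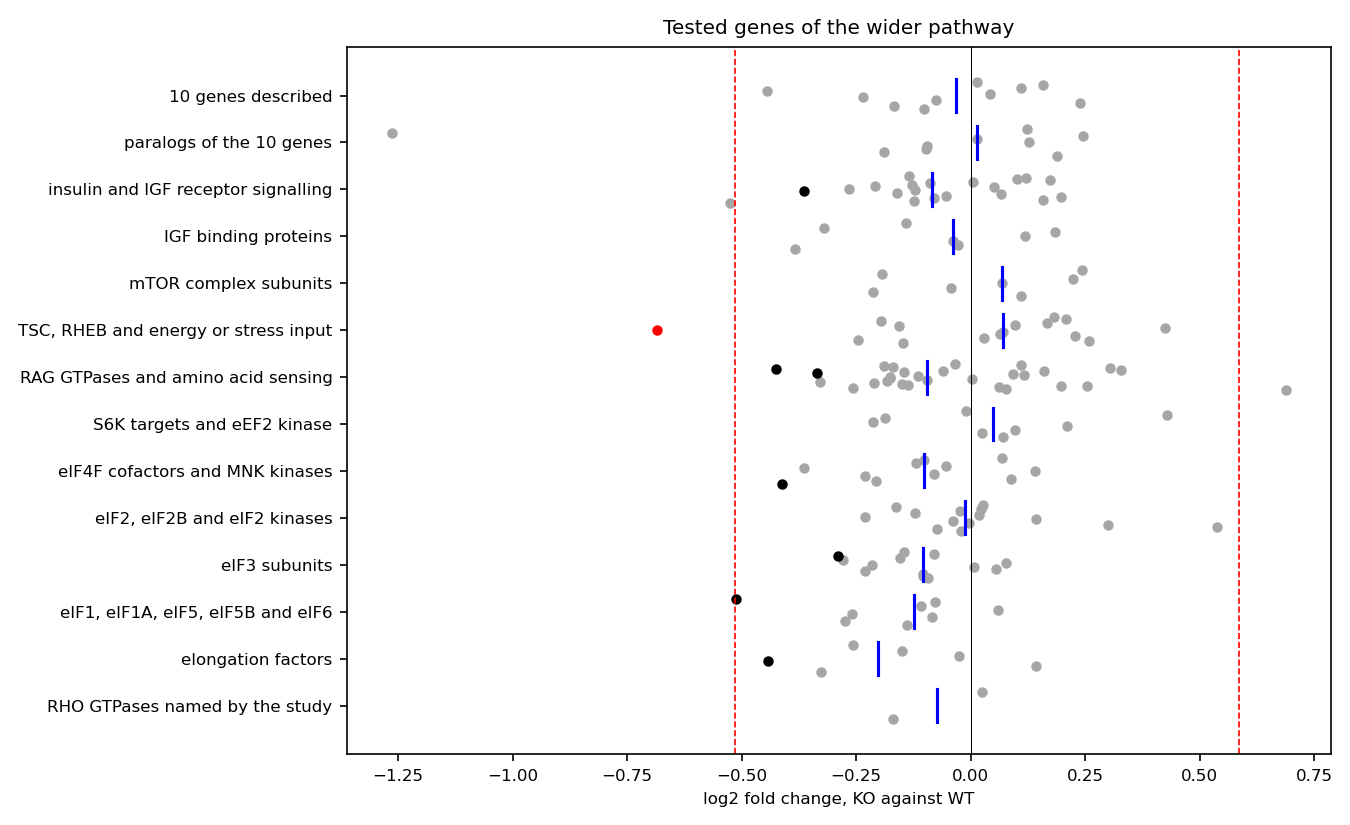
Log2 fold change of KO against WT for each tested gene of the 10 genes, their paralogs and the wider lists, with red for genes past the study's thresholds, black for an unadjusted p under 0.05 alone, grey for the rest, a blue bar at the median of each list and dashed lines at the fold change thresholds. Prkag2 is the 1 red point, and the 7 black points all lie below 0.

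Rac1 and Cdc42, small GTPases examined in the study, were also read. Rac1, which organizes actin and takes part in glucose uptake by muscle, had a CPM of 88.7, 106 and 94.5 in WT and 94.1, 98.5 and 102 in KO, and Cdc42, its relative in cell polarity, 101, 109 and 119 in WT and 103, 92.8 and 96.7 in KO. The log2 fold change was 0.02 (adjusted p = 0.966) for Rac1 and -0.17 (adjusted p = 0.704) for Cdc42 in edgeR, and the genotypes overlapped for both.

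The 10 genes lie on 9 chromosomes, and Rptor and Rps6kb1 share chromosome 11. In the positions of the count table, which the submitters' processing notes place on GRCm39, Igf1 spans chr10:87694127-87772904 on the plus strand, Mtor chr4:148533068-148642140 on the plus strand and Deptor chr15:54975713-55122667 on the plus strand. The study's methods name an earlier mouse build, and none of the 10 genes has the same start and end in GENCODE release M21 of that build. Of Rps6kb1, 155 bases of exon, or 1.79% of its counted length, are shared with Rnft1 on the other strand, and of Deptor 303 bases, or 3.41%, with Gm9920 on the other strand. Reads of such bases cannot be assigned to a gene without strand, and the pseudogene Akt2-ps, with 505 counts in all, could share reads with Akt2.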

How the data were processed

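Per the study's methods and the submitters' processing notes, paired-end reads of TA muscle RNA were aligned by the authors (HISAT2) and assigned to genes (featureCounts), and the deposited table holds raw counts, without normalization, for 6 libraries. Strand handling and reads with several matches are not given in the sources used here. One WT column carries no number and was taken as replicate 1, since the others name replicates 2 and 3. Of 55416 genes 52083 received a symbol through their Ensembl identifier.

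Genes were kept with filterByExpr, scaled by TMM factors of 0.893 to 1.20 and compared with the quasi-likelihood test of edgeR (version 4.0.16, R 4.3.3) with robust estimation and Benjamini-Hochberg adjustment over 15623 genes. A single gene was also compared with an exact permutation test over the 6 libraries. At these depths 3 counts came to a CPM of 0.0934 to 0.122, a floor that covers counting error only. Chi-square per degree of freedom between replicates was 19.3 to 70.5, so no libraries of the same genotype were duplicates. Pairs of a WT and a KO library were not compared in this way. p-values set the difference between the genotypes against the spread between these libraries. The similarity to Igf1 used log2 of CPM plus 0.5. The steps were tested on simulated data.

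The members and lists were chosen with earlier results of these data known. By rule the text names the 10 genes, Selenow, Rac1, Cdc42, the paralogs, Rictor, Mlst8, Akt1s1, each called gene and the most abundant gene of each pathway list, and the 3 genes most similar to Igf1. The alternatives were leaving out each library in turn, a block for the replicate number, fits with no filter or with a minimum of 10 counts per library, with the mitochondrially encoded genes removed and with robust estimation switched off, dropping the fold change threshold, and DESeq2 (version 1.42.0), both as a test and for its size factors alone. All but the dropped threshold are refits, 13 in all. The count of adjusted p-values under 0.05 with DESeq2 was added after seeing the data. A gene of the paralog list is counted with its list, and its own values are not reported here.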

Additional observations from a re-analysis of the deposited data

How the results depend on the processing

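The median log2 fold change of the 10 genes stayed between -0.0059 and -0.06 under all alternatives run. No gene of the 10 was called under any of them but Igf1, so that leaving out 1 library gave 0 to 1 called genes. The direction of each of the 10 genes held under every other scaling, filter and test, and leaving out a library turned that of Rptor (without WT replicate 1 or KO replicate 2), Eif4e (without WT replicate 1) and Eif4g1 (without WT replicate 1 or KO replicate 3), none of them called. Without WT replicate 3, Deptor and Eif4ebp1 had an unadjusted p under 0.05, at log2 fold changes of 0.40 and -0.37, short of the fold thresholds. Other libraries left out made these changes smaller, to 0.13 for Deptor (without WT replicate 1) and to -0.05 and -0.13 for Eif4ebp1 (without WT replicate 2 and KO replicate 2). Igf2 passed the thresholds with robust estimation off, at -1.26.

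Of the wider lists, 1 gene was called in edgeR, as compared with 2 with DESeq2 (Prkag2 and Grb10), 4 with no filter, 2 with at least 10 counts in every library, 3 with robust estimation off, 8 with no fold change threshold and 1 to 5 when a library was left out; fewer or more tested genes are part of the filter settings, and otherwise the cause was not tested. Of all genes, 836 were called, as compared with 1780 with no filter, where 31780 genes were tested, 1545 with no fold change threshold, and 814 to 1072 without a library. Adjusted p-values under 0.05 were given to 0 to 242 genes without a library. The replicate block called 890 genes, 0 of the 10 and 1 of the wider lists. Correlations of same-numbered libraries were 0.06, 0.04 and -0.07, and those of WT and KO libraries with different numbers ran from -0.14 to 0.09. With 3 libraries a genotype, these values cannot decide whether the numbers pair the mice. Of the 10 genes, Igf1 had the fewest counts, 56 to 122 a library.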
